A study of Ovis aries with 4 samples.

Results

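C1QA, MRC1 and CD14 are 3 genes by which tissue macrophages are commonly recognised, and they were followed here through single-cell transcriptomes of the lactating sheep mammary gland. The 3 genes were taken by their symbols from the 20150 gene rows of the deposited count tables, of which 774 carry a symbol, and all 3 were found (C1QA as ENSOARG00000008001, MRC1 as ENSOARG00000012176 and CD14 as ENSOARG00000025180). Mammary tissue of 4 ewes (Ovis aries) was dissociated and sequenced by droplet 10x capture, 1 library per ewe. The libraries titled LH and LL hold 2 ewes each. The design text names peak and late lactation, so that LL was read as late lactation and LH, by elimination, as peak lactation. Neither a treatment nor the breed or age of the ewes is given in the sources used here, and each ewe enters as 1 gland sample, so every comparison of stages rests on 2 ewes against 2.

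C1QA encodes a chain of C1q, the recognition molecule that starts the classical complement pathway, and in most tissues macrophages are its main source. MRC1 encodes the mannose receptor (CD206), an endocytic receptor for mannose-bearing glycoproteins that marks many resident macrophages and is also carried by lymphatic and some other sinus-lining endothelial cells. CD14 encodes the co-receptor that hands bacterial lipopolysaccharide to Toll-like receptor 4, and it is known from monocytes and macrophages and, in the bovine and human mammary gland, from milk and milk-secreting epithelium. IL1A and IL1B, the 2 agonist cytokines of the interleukin-1 family, are made by activated myeloid cells, IL1A also by epithelium.

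The files held 5955 to 12733 barcodes and 28015149 to 65339993 unique molecular identifiers (UMIs, counted molecules) per library, with a median of 2693 to 3294 UMIs per barcode. After removal of barcodes above 20% mitochondrial UMIs and of 3.97% to 4.98% called doublets, 37121 cells remained. Cells were sorted by marker genes other than the 3 members. A cell entered a gate with at least 2 distinct markers of 1 list. Where a list had only 1 or 2 markers with a symbol, as with RELN and F8, at least 2 UMIs in total over the list sufficed. A cell that met 2 gates was set aside as mixed. The exception was a cell that met both the blood endothelium gate and the gate on RELN and F8, which was counted in the latter. The myeloid gate used LYZ, CD86, ITGAM, TLR2, TLR4, FCGR1A, FCGR2B and FCGR3A and held 146 and 221 LH cells and 243 and 107 LL cells. The T cell gate (CD3E, CD3D, CD247, LCK, CD28) held 258 to 1293 cells per library and served as the reference, since T cells should lack all 3 members. Gates took in 39.4% of cells, and the many ungated cells are counted below. The blood endothelium gate (SELP, SELE, KDR) held 263 cells in LL replicate 1 and at most 3 elsewhere. Between 15 and 39 barcodes were shared by any pair of libraries.

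C1QA was the most widely counted of the 3, with 28170 UMIs in 2468 cells (6.65% of kept cells). In the myeloid gate its summed level was 4401 and 4725 CPM (the gene's UMIs over all UMIs of those cells, scaled to a common total) in the LH libraries, against 3664 and 4077 CPM in the LL libraries. It was detected, with at least 1 UMI, in 79.5% and 84.6% of LH myeloid cells and in 76.1% and 85.0% of LL myeloid cells. The LH and LL ranges of the share overlapped, and thinning every cell to 1000 UMIs left the shares between 75.0% and 86.0%. T cell gate levels lay between 19.1 and 24.9 CPM. Part of the T cell level came from few cells: those with 10 or more C1QA UMIs, 3 in LH replicate 1 and 1 in each LL library, held 36 of 94, 11 of 36 and 23 of 27 UMIs there. Without them the T cell levels were 11.8 and 24.7 CPM (LH) and 14.2 and 3.71 CPM (LL). In an edgeR quasi-likelihood fit over gate-by-library sums with the ewe as a block, C1QA was 7.45 ± 0.50 (SE) log2 units higher in the myeloid than in the T cell gate (edgeR adjusted p = 1.67e-10, higher in 4 of 4 ewes).

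MRC1 was counted far less often, with 2134 UMIs in 664 cells. Myeloid-gate levels were 351 and 207 CPM in the LH libraries, against 280 and 425 CPM in the LL libraries, and detection was 52.1% and 24.9% of cells in the LH libraries, against 45.7% and 39.3% in the LL libraries. LH replicate 2 had the lowest level and the lowest share, while the other LH ewe had the highest share. In the T cell gate MRC1 did not exceed 1.13 CPM in any library, and 2 of the 4 libraries held none. The myeloid gate exceeded the T cell gate by 8.96 ± 0.59 log2 units (edgeR adjusted p = 1.42e-10, 4 of 4 ewes).

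CD14 gave 1028 UMIs in 866 cells. Its myeloid-gate level was 42.1 and 42.3 CPM in the LH libraries, against 36.0 and 52.3 CPM in the LL libraries, with 24.7%, 16.3%, 18.1% and 16.8% of myeloid cells positive in LH replicates 1 and 2 and LL replicates 1 and 2. The single CD14 UMI of the whole T cell gate lay in LH replicate 2. With 0 of 1293 cells in LH replicate 1, a share of up to 0.232% of cells with a CD14 UMI is allowed there, and the limits of the 2 LL libraries are 0.511% and 0.733%. These limits concern detection, and CD14 was detected in a minority of myeloid cells too. The myeloid gate was 7.99 ± 0.73 log2 units above the T cell gate (edgeR adjusted p = 1.32e-08). All 3 members were thus called higher in the myeloid gate, in a fit that called 21.0% of 12662 tested genes higher. The fitted size for CD14 depends on 1 UMI in the T cell gate, and the summed ratio of 352 has an exact 95% counting interval of 62.4 to 13969.

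**Figure D1:**
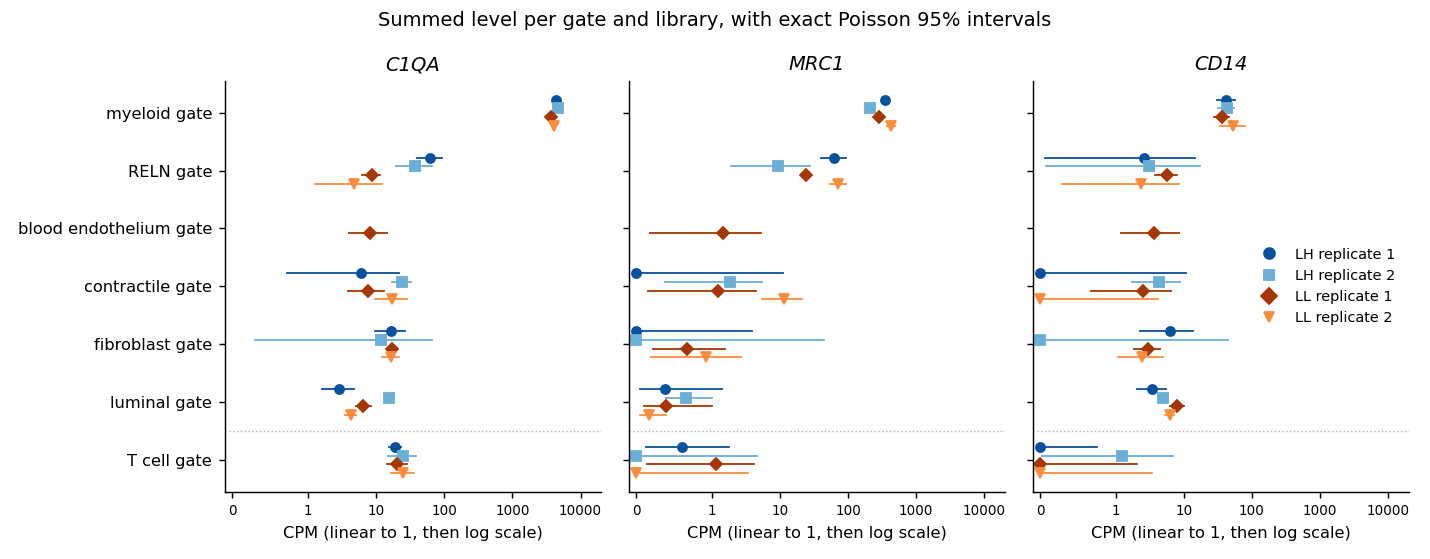
Summed level (CPM, linear up to 1 and logarithmic above) of C1QA, MRC1 and CD14 in each marker gate with at least 20 cells, 1 symbol per library, with exact Poisson 95% intervals for counting error only. All 3 genes are highest in the myeloid gate in each library; by the mean over libraries MRC1 comes next in the RELN gate and CD14 in the luminal gate, although CD14 in LH replicate 1 was 6.21 CPM in the fibroblast and 3.45 CPM in the luminal gate.

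The 3 genes differed in how many of their molecules the myeloid gate held. It took 67.3% of all C1QA UMIs but 23.5% of the C1QA-positive cells, many of which carried a single UMI. Pooled MRC1-positive cells lay mostly in the myeloid gate (42.8%), a gate on RELN and F8 (24.8%) or no gate (20.3%), and 4.97% were mixed. In LH replicate 2 the gate on RELN and F8 held 2.56% of them, against 47.0% in the myeloid gate and 27.4% in no gate. CD14 went the other way in the pooled counts, with 18.0% of its UMIs in the myeloid gate and 41.5% in the luminal gate. In LH replicate 1 it did not, with 43.1% in the myeloid and 17.6% in the luminal gate. Cells in no gate held 22.9% of C1QA, 19.3% of MRC1 and 15.8% of CD14 UMIs, and mixed cells 5.60%, 6.28% and 16.1%. Of CD14-positive cells 148 met no gate and 136 were mixed, against 134 in the myeloid gate.

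A cell positive for C1QA was usually either rich in it or held 1 molecule. Between 102 and 545 cells per library had exactly 1 C1QA UMI, and at most 8 of them lay in the myeloid gate of any library. Cells with 10 or more C1QA UMIs numbered 153 and 271 in the LH libraries, against 228 and 100 in LL, and 68.6%, 56.8%, 68.0% and 71.0% of them met the myeloid gate. Most of the remainder met no gate at all, with 40 and 98 such cells in the LH libraries, against 60 and 21 in LL.

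Cells rich in C1QA were also the cells in which the other members were most often found. MRC1 was detected in 52.3% and 23.2% of LH cells and in 44.3% and 39.0% of LL cells with 10 or more C1QA UMIs, against at most 1.36% of cells with none. CD14 was found in 16% to 23.2% of the C1QA-rich cells. CD86, a costimulatory ligand for T cells and a gate marker, was found in 67.3% to 77.6%. Cells with a single C1QA UMI had MRC1 in 0.980% and 0.734% (LH) and in 4.25% and 1.29% (LL), against 0.573%, 0.444%, 1.36% and 0.769% of cells without C1QA. Their median depth was 3644.5 to 7972 UMIs, against 2578 to 3238 in cells without C1QA. These classes are described over cells, which are not replicates.

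**Figure D2:**
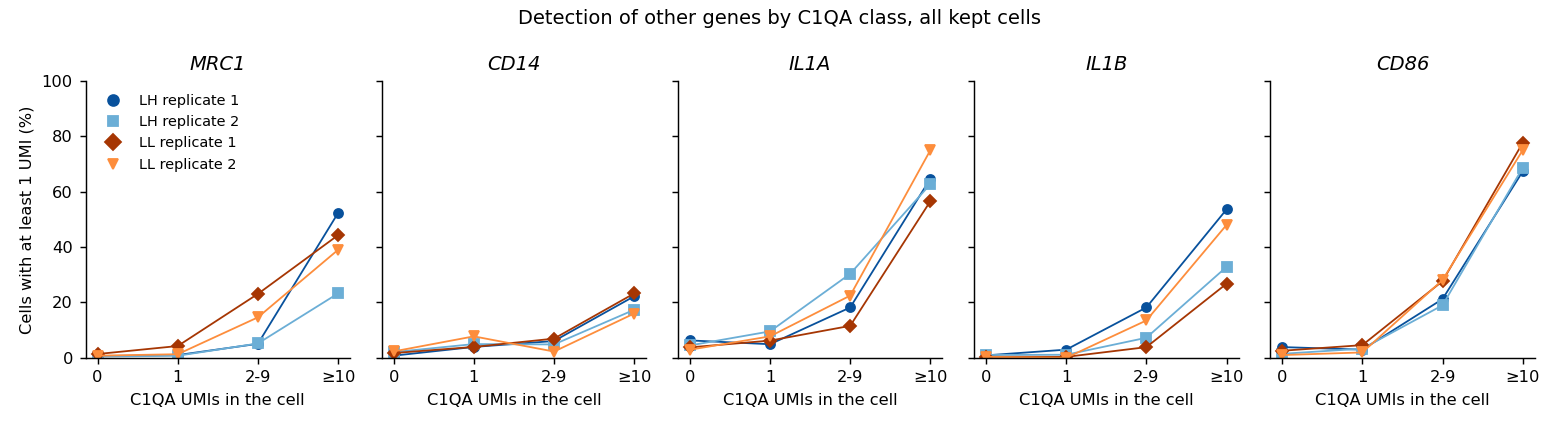
Share of cells with at least 1 UMI of MRC1, CD14, IL1A, IL1B and CD86 (y axis, %) by the number of C1QA UMIs in the cell (x axis), 1 line per library, all kept cells. In every library the highest share of each of the 5 genes is at 10 or more C1QA UMIs.

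Within the myeloid gate, C1QA was found in nearly all MRC1-positive cells, and in most MRC1-negative cells too. Of MRC1-positive myeloid cells, 94.7% and 94.5% in the LH libraries, against 91.0% and 97.6% in the LL libraries also held C1QA (mean 94.5% ± 2.71, SD, n = 4). Thinned to 1000 UMIs per cell the mean was 95.1%. Of MRC1-negative myeloid cells, 62.9% and 81.3% (LH) and 63.6% and 76.9% (LL) held C1QA. Thinned, those shares were 73.2%, 82.5%, 71.6% and 81.2%. In the other direction 62.1%, 27.8%, 54.6% and 45.1% of C1QA-positive myeloid cells had MRC1, with a mean of 47.4% as deposited and 21.5% after thinning. Among C1QA-negative myeloid cells MRC1 was found in 4 of 30, 3 of 34, 10 of 58 and 1 of 16, a lower share than among C1QA-positive cells in each of the 4 libraries.

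CD14-positive myeloid cells were too few at equal depth to place against C1QA. C1QA was present in 83.3% to 95.5% of them as deposited. After thinning 6 to 9 CD14-positive myeloid cells per library remained, and their C1QA share was 66.7% to 100% against 73.97% to 87.2% of CD14-negative cells. As deposited, CD14 was detected in more of the MRC1-positive than of the MRC1-negative myeloid cells in 3 libraries, and in LL replicate 2 in fewer (5 of 42 against 13 of 65). After thinning only LL replicate 1 kept that order (3 of 34 against 6 of 194), and both LH libraries had no MRC1-positive cell with CD14 (0 of 27 against 6 of 112, and 0 of 15 against 9 of 189). MRC1 was detected in 58.3% and 33.3% of CD14-positive myeloid cells in the LH libraries, against 68.2% and 27.8% in the LL libraries.

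All 3 members together were detected in 14.4% and 4.98% of LH and in 11.9% and 4.67% of LL myeloid cells. None of the 3 was detected in 16.4% and 12.7% of LH and in 19.3% and 11.2% of LL myeloid cells. C1QA alone was the commonest pattern in LH replicate 2 (51.6%) and LL replicate 2 (37.4%). C1QA with MRC1 was the commonest in LH replicate 1 (34.9%) and, by 1 cell, in LL replicate 1 (29.6%). Thinned to 1000 UMIs, C1QA alone was the commonest pattern in all 4 libraries (56.1%, 73.0%, 58.3% and 53%).

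**Figure D3:**
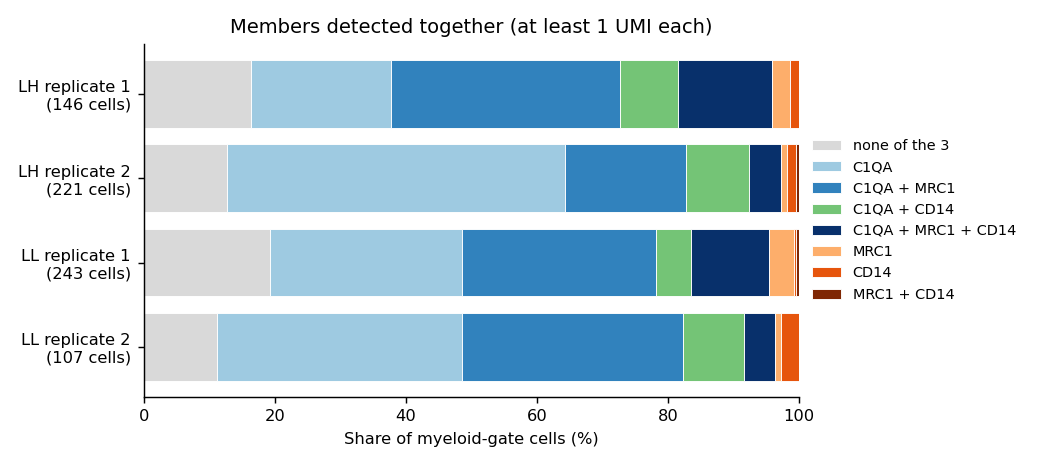
Share of myeloid-gate cells (x axis, %) with each combination of C1QA, MRC1 and CD14, at least 1 UMI each, as stacked bars that start at 0, 1 bar per library. Cells with MRC1 or CD14 but no C1QA take a narrow band of each bar.

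MRC1 had a second site in the gate on RELN and F8. RELN (reelin, a secreted matrix glycoprotein) and F8 (coagulation factor VIII) are known from lymphatic endothelium, but with 2 markers the cells are called RELN-gate cells here. The gate held 72 and 101 cells in the LH libraries, against 707 and 253 in the LL libraries. MRC1 levels in it were 61.8 and 9.29 CPM in the LH libraries, against 24.0 and 71.4 CPM in the LL libraries, and MRC1 was detected in 25%, 2.97%, 13.7% and 18.6% of these cells. Every library lay above its own T cell gate, and LH replicate 2 was the lowest on both scales. The RELN gate was 5.73 ± 0.68 log2 units above the T cell gate for MRC1 (edgeR adjusted p = 4.74e-07), where 22.3% of genes were called higher and 21.8% lower. The summed ratio was 53.5 (counting interval 22.6 to 167).

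The RELN gate of LH replicate 2 stood apart in its cells with RELN alone. There 80 of 101 cells held RELN without F8, and KDR, the endothelial receptor for vascular endothelial growth factor, was found in 2.50% of those 80, against 20.0% of RELN-alone cells in LH replicate 1 and 48.0% and 40.4% in the LL libraries. In the cells with both RELN and F8, KDR was found in 64.4% and 30% of LH and in 67.1% and 50.5% of LL cells. Cells with F8 alone differed in both LH libraries, where the leukocyte gene CD53 was found in 41.2% and 36.4%, against 4.14% and 2.94% in LL. None of these 17 cells in LH replicate 1 held KDR. C1QA in cells with F8 alone was 298 and 13.2 CPM (LH) and 8.53 and 10.2 CPM (LL). Without LH replicate 2 the MRC1 difference from the T cell gate was 5.85 log2 units (edgeR adjusted p = 1.87e-06).

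Where both RELN and F8 were detected, MRC1 was found in a larger share of cells. It was found in 15 of 45 and 2 of 10 such cells in LH (33.3% and 20.0%) and in 68 of 340 and 29 of 105 in the LL libraries (20.0% and 27.6%). Cells with RELN alone had MRC1 in 20.0%, 1.25%, 13.6% and 14.0%, and cells with F8 alone in 5.88%, 0%, 1.18% and 5.88%. The order of these shares was the same in all 4 libraries, although the intervals of the small LH classes are wide. The order of the summed MRC1 level was not: cells with both markers had 74.8, 52.2, 31.6 and 92.8 CPM and cells with RELN alone 46.0, 4.79, 42.3 and 85.3 CPM, so that LL replicate 1 was higher with RELN alone. Cells with both were also deeper, with medians of 4565, 3424.5, 4188 and 2769 UMIs against 4497.5, 2564.5, 2734.5 and 1998, and the part of depth in the shares was not tested. MRC1-positive RELN-gate cells also carried more RELN and F8 than MRC1-negative ones, with summed levels of 2234 and 4154 (LH) and 2156 and 2003 CPM (LL) against 1284, 1141, 711 and 1455 CPM. The LH replicate 2 value stands on 3 cells.

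These MRC1-positive RELN-gate cells lacked C1QA for the most part. C1QA was found in 1 of 18, 0 of 3, 6 of 97 and 0 of 47 of them. The other myeloid markers were near the floor too: of the 8 gate markers 3, 0, 4 and 1 had any UMI in these cells, at a summed level of 154, 0, 10.3 and 10.6 CPM against 1717, 1525, 1426 and 2019 CPM in MRC1-positive myeloid cells. Of the LH replicate 1 value, 131 CPM was CD86 in 1 cell, and ITGAM and FCGR1A were at 0 in all 4 libraries. A cell with 2 myeloid markers could not enter the RELN gate, which bounds these levels. MRC1 was also present in few copies per cell, with 1 UMI in 73.2% to 100% of positive RELN-gate cells and at most 5 in any, whereas myeloid cells reached 18 to 71.

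Other stromal gates held little MRC1. RELN-gate cells exceeded contractile-gate cells (EDNRA, CNN1, AVPR1A, AGTR1) by 3.40 ± 0.55 log2 units (edgeR adjusted p = 9.16e-05, 14.0% of genes called higher). Against the blood endothelium gate, which only LL replicate 1 filled, MRC1 stood at 132 UMIs in 707 cells against 2 in 263, a ratio of 16.3 with a counting interval of 4.42 to 136. That fit, in which the lone library is assumed to vary like the other gates, gave 4.19 ± 1.12 log2 units and did not pass (edgeR adjusted p = 0.127, with 0.458% of genes called higher). Restricted to cells with both RELN and F8, a choice made after seeing the data that leaves out LH replicate 2 (10 such cells), it passed (4.70 log2 units, edgeR adjusted p = 0.0180). Contractile cells had 0, 1.84, 1.25 and 11.3 CPM. Their difference from T cells missed the threshold at 2.33 ± 1.01 log2 units (edgeR adjusted p = 0.0586), passed in 5 of 8 alternatives and turned negative under the stricter gate. Of the 15 contractile-gate UMIs 10 came from 1 cell of LL replicate 2. Fibroblast-gate (at most 0.926 CPM) and luminal-gate cells (at most 0.651 CPM) did not differ by a passing margin from T cells in MRC1, with edgeR adjusted p = 0.954 and 0.756.

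**Figure D4:**
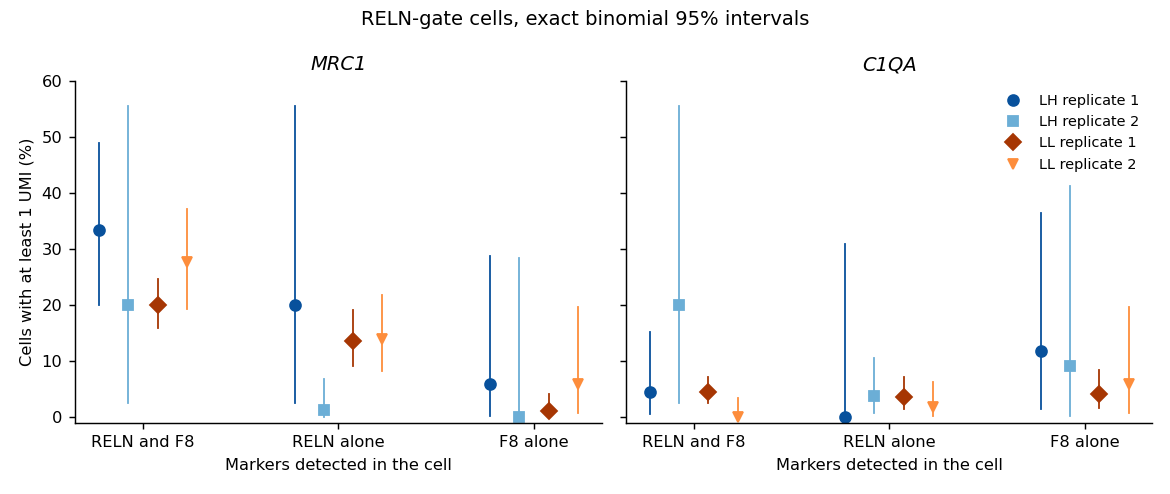
Share of RELN-gate cells (y axis, %) with MRC1 (left) and with C1QA (right), by which of the gate's markers the cell held, 1 symbol per library, with exact binomial 95% intervals. MRC1 falls from cells with both markers to cells with F8 alone in each library. C1QA has no order of the 3 classes common to the libraries, although its share is higher with F8 alone than with RELN alone in each.

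CD14 was counted most often in the luminal gate (EPCAM, CLDN4, CLDN7). Of 866 CD14-positive cells 363 lay there and 134 in the myeloid gate. The luminal level was 3.45 and 4.90 CPM in the LH libraries, against 7.96 and 6.17 CPM in the LL libraries, with 4.41%, 5.92%, 7.44% and 7.69% of cells positive. The myeloid gate was higher in every library, by 7.15 times in the summed counts (interval 5.98 to 8.51), while the luminal gate was larger (295 to 2161 cells) and its cells deeper (median 9825 to 14238 UMIs, against 3795 to 6789 in myeloid cells). Thinned to 1000 UMIs, 0.341% to 0.514% of luminal cells held CD14, against no thinned T cell in any library. Those zeros stand on 1280 and 253 LH and 572 and 391 LL cells, and a count of 0 allows up to 3 counts. The limit so set lies above the luminal share in each library except LH replicate 1, where that share came from 293 cells. Thinned CD14 shares of stromal gates, on few cells, lay on both sides of the luminal ones. They were 0.957%, 0%, 0.376% and 0.408% in the fibroblast and 0%, 0.645%, 0.457% and 0% in the contractile gate. In the RELN gate they were 0%, 0%, 0.730% and 0%.

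CD14 in the luminal gate passed the test against T cells at 5.09 ± 0.87 log2 units (edgeR adjusted p = 3.43e-05, higher in 4 of 4 ewes, 30.1% of genes called higher). The summed ratio was 49.2 with an interval of 8.79 to 1949, which rests on the 1 T cell UMI. The ratio of CD14 to C1QA counts differed between the gates. Myeloid cells held 0.896 to 1.28 CD14 UMIs per 100 C1QA UMIs, whereas luminal cells held 120 and 32.0 in the LH libraries, against 123 and 147 in LL. A ratio above the myeloid one was not particular to luminal cells. On few counts it was 37.5, 0, 17.5 and 15.1 in the fibroblast gate and 0, 17.9, 33.3 and 0 in the contractile gate. In the RELN gate it was 4.17, 8.33, 66.0 and 50. In luminal cells without any C1QA UMI, CD14 stood at 3.40, 4.80, 7.75 and 6.19 CPM, nearly the level of the whole gate.

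CD14-positive luminal cells carried the gate's markers at the level of the other luminal cells. Their summed EPCAM, CLDN4 and CLDN7 level was 1106 and 1340 (LH) and 1141 and 1086 CPM (LL), against 1070, 1341, 1190 and 1148 CPM in CD14-negative cells of the gate. The 8 myeloid markers together were at 8.73 and 11.2 CPM in the LH libraries, against 22.4 and 20.1 CPM in the LL libraries. These levels were below the CD14-negative luminal cells of the same library in all 4. A luminal cell that also met the myeloid gate was set aside as mixed, which bounds these levels, and deeper cells reach that bound sooner. The part of this rule and of depth in the order was not tested. CD14-positive luminal cells were deeper, with medians of 17029 to 19153 UMIs against 9568 to 14073.5 UMIs, and 69.2% to 89.1% of them held a single CD14 UMI. Splitting the gate by lactoferrin (LTF) and osteopontin (SPP1), which separate milk-secreting states of these cells, gave CD14 levels of 1.37 (1 cell), 3.79, 9.12 and 6.52 CPM where LTF exceeded SPP1 and 3.79, 4.99, 6.49 and 4.65 CPM elsewhere. The order of the LTF and SPP1 classes thus differed between the LH and the LL ewes, a difference that was not tested.

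C1QA was lower in luminal than in T cells by the test. It was detected in 4.75% and 13.2% of LH and 6.15% and 4.08% of LL luminal cells. The T cell share was smaller in each library, at 36 of 1293 and 12 of 258 (LH) and 18 of 587 and 2 of 409 (LL). After thinning the shares were 0.642% to 1.59% of luminal and 0.512% to 2.37% of T cells. Luminal cells were deeper, with medians of 9825 to 14238 UMIs against 2471 to 3455. The part of depth in the shares and levels was not tested. The luminal C1QA level (2.88, 15.3, 6.49 and 4.20 CPM) was below that of T cells in every library, in LL replicate 2 by 1 T cell with 23 UMIs. The difference was -1.81 ± 0.43 log2 units (edgeR adjusted p = 0.00122, 26.5% of genes called lower), and it missed the threshold under the stricter gate (edgeR adjusted p = 0.0629). Leaving cells of 10 or more C1QA UMIs out of every gate but the myeloid one, an alternative chosen after seeing the data, gave -1.07 log2 units (edgeR adjusted p = 0.0157), with luminal levels of 2.88, 14.6, 6.49 and 4.20 CPM, lower than T cells in 3 of 4 libraries and higher in LL replicate 2. In that library the thinned share was also higher in luminal cells (0.799% against 0.512%). LH replicate 2 gave the highest luminal C1QA level and also the highest share of C1QA-positive cells among all kept cells (12.3%).

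CD14 also stood above T cells in 4 other gates, on few counts. The fibroblast gate (DCN, SFRP2, SERPINF1, MMP2) held 36 CD14 UMIs over the 4 libraries (6.21, 0, 2.97 and 2.47 CPM; 3.96 ± 1.04 log2 units, edgeR adjusted p = 0.00290, 26.4% of genes called higher). The RELN gate held 35 UMIs, 31 of them in LL replicate 1 (2.58, 3.10, 5.64 and 2.34 CPM; 4.49 ± 1.02, edgeR adjusted p = 0.00108). Without LL replicate 1 the RELN-gate difference was 3.38 log2 units and did not pass (edgeR adjusted p = 0.0983). The contractile gate held 11 UMIs in 2 libraries (3.54 ± 1.18, edgeR adjusted p = 0.0158, 24.3% of genes called higher) and lost the call without LH replicate 1 (2.89, adjusted p = 0.0603), without LL replicate 1 (3.21, adjusted p = 0.0721) and under the stricter gate. The blood endothelium gate, which entered from LL replicate 1 alone, held 5 CD14 UMIs in 263 cells (3.69 CPM). It stood 4.28 ± 1.42 log2 units above T cells (edgeR adjusted p = 0.0296, 14.3% of genes called higher) and lost the call without LH replicate 1 (3.46, edgeR adjusted p = 0.0819). C1QA (8.12 CPM) and MRC1 (1.48 CPM) there did not differ from T cells by a passing margin (edgeR adjusted p = 0.346 and 0.612).

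C1QA in these gates did not differ from T cells by a passing margin. Fibroblast cells had 11.95 to 17.0 CPM and contractile cells 5.91 to 24.0 CPM (edgeR adjusted p = 0.264 and 0.0889). RELN-gate cells had 61.8 and 37.2 CPM in the LH libraries, against 8.55 and 4.68 CPM in the LL libraries, on 24, 12, 47 and 4 UMIs. Of the 24 UMIs in LH replicate 1, 17 were in 1 cell. The RELN-gate difference from T cells was -0.51 ± 0.49 log2 units (edgeR adjusted p = 0.436), and it passed as lower without LH replicate 1 (-1.19, edgeR adjusted p = 0.0385) or in cells with both RELN and F8 (-1.50, edgeR adjusted p = 0.0263).

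Ordered by mean level over the gates that all 4 libraries filled, C1QA ran from the myeloid gate (4217 ± 454 CPM, SD, n = 4) to the RELN (28.1 ± 26.8), T cell (22.3 ± 2.99), fibroblast (15.5 ± 2.36), contractile (13.6 ± 8.47) and luminal gates (7.22 ± 5.60), and below the myeloid gate only T cells and fibroblasts, of these neighbours, had ranges that did not overlap, a gap that is lost without the T cells of 10 or more C1QA UMIs. MRC1 ran from the myeloid (316 ± 93.8 CPM) to the RELN gate (41.6 ± 29.7) without overlap, then to the contractile (3.601 ± 5.20), T cell (0.435 ± 0.545), fibroblast (0.4002 ± 0.473) and luminal gates (0.399 ± 0.198), which overlapped with their neighbours. CD14 ran from the myeloid (43.2 ± 6.78 CPM) to the luminal gate (5.62 ± 1.92) without overlap. The RELN gate (3.41 ± 1.52), which overlapped with the luminal gate, and the fibroblast (2.91 ± 2.55), contractile (1.70 ± 2.10) and T cell gates (0.308 ± 0.617) followed, each overlapping with the one before.

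IL1A and IL1B were found in the same gate as the members. In myeloid cells IL1A stood at 3103 and 2067 (LH) and 926 and 5180 CPM (LL), and IL1B at 1409, 516, 182 and 735 CPM. Detection of IL1A was 66.4%, 74.7%, 49.4% and 72.9%, and of IL1B 54.8%, 42.5%, 23.0% and 47.7%. LL replicate 1 was lowest for both cytokines. IL1A was also seen in 8.56% to 14.7% of T cell gate cells (50.6 to 97.2 CPM; 3.75% to 7.34% after thinning), while IL1B there was at most 1.23 CPM.

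C1QA-positive myeloid cells held IL1A more often than C1QA-negative ones in every library. IL1A was detected in 75.0% and 78.6% of LH and 60% and 80.2% of LL C1QA-positive myeloid cells, against 33.3%, 52.9%, 15.5% and 31.2% of C1QA-negative ones. The order was the same after thinning (66.7%, 61.8%, 35.7% and 75.6% against 22.6%, 35.3%, 19.3% and 28.6%). IL1B was less regular: it was more frequent with C1QA in LH replicate 1 and both LL libraries and less frequent in LH replicate 2 (40.6% against 52.9%). For MRC1 the thinned share with IL1A was higher than without MRC1 in LH replicate 1 and LL replicate 2 and lower in the other 2 libraries.

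A small set of myeloid-gate cells had IL1B without IL1A, 5 and 6 cells in the LH libraries, against 13 and 3 in LL. C1QA was detected in 20.0%, 16.7%, 38.5% and 33.3% of them, against 96.0%, 85.2%, 95.3% and 91.7% of cells with both cytokines. MRC1 was absent from these cells in 3 of the 4 libraries and present in 30.8% in LL replicate 1. Their median depth was 1157.5 to 4851 UMIs against 4100 to 9460 in cells with both, and the part of depth was not tested beyond thinning, which left C1QA in 20.0%, 20.0%, 55.6% and 50% of 2 to 9 cells.

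Summed per ewe, the members did not differ by a passing margin between myeloid cells with and without IL1A or IL1B. C1QA was 4511 against 3758 and 4755 against 4484 CPM (LH) and 3929 against 3160 and 4432 against 2693 CPM (LL), higher with IL1 in 4 of 4 ewes (0.40 ± 0.19 log2 units, edgeR adjusted p = 0.327). MRC1 was 369 against 248 and 211 against 167 CPM (LH) and 263 against 313 and 471 against 246 CPM (LL), higher in 3 of 4 (0.41 ± 0.23, edgeR adjusted p = 0.398). CD14 was 46.0 against 19.6 and 47.6 against 0 CPM (LH) and 35.7 against 36.5 and 43.8 against 85.5 CPM (LL) (0.51 ± 0.52, edgeR adjusted p = 0.691), and its change ran from 0.064 without LH replicate 2 to 0.96 without LL replicate 2. None of the 3 was among the 4.49% of 5631 tested genes that were called. Cells with IL1 were deeper, with medians of 8992, 7086, 7643 and 4027 UMIs against 2167, 2181.5, 4743 and 3135.5, and the part of depth in these differences was not tested.

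**Figure D5:**
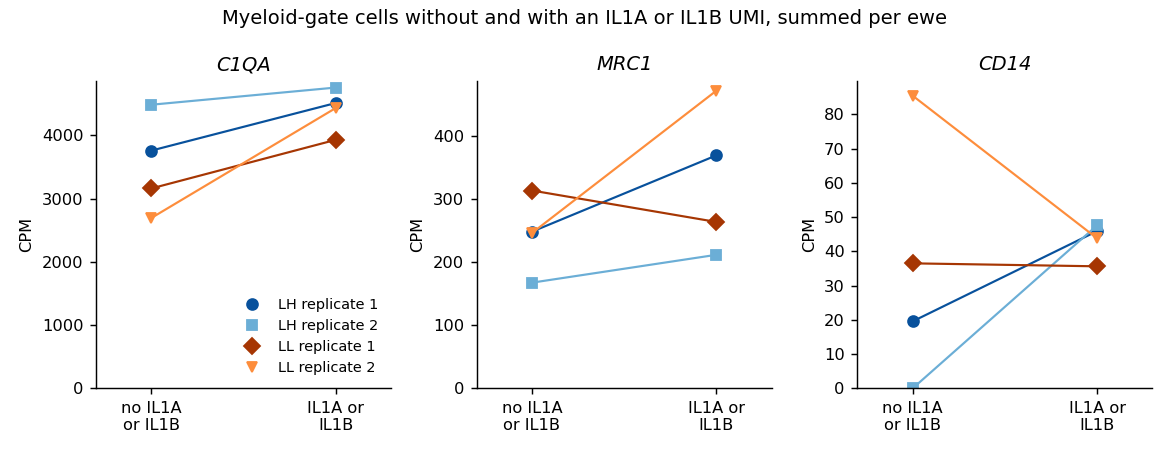
Summed level (CPM, axes from 0) of each member in myeloid-gate cells without and with a UMI of IL1A or IL1B, 1 line per ewe. C1QA rises along all 4 lines, MRC1 along 3, and the CD14 lines of the LH and LL ewes slope in opposite directions.

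Among genes of related pathways that carry a symbol, the same comparison called 5 higher and 1 lower. CXCL8, a neutrophil-attracting chemokine, was 3.02 ± 0.43 log2 units higher in IL1-positive cells (edgeR adjusted p = 0.00359), the chemokine gene CXCL1 1.85 ± 0.42 (adjusted p = 0.0287) and the cytokine IL18 0.95 ± 0.23 (adjusted p = 0.0390), making 3 of 6 tested genes of the interleukin-1 and inflammatory cytokine list (median 0.94). In the CD14 and Toll-like receptor list 1 of 9 passed, NFKBIA, an inhibitor and target of NF-kappa-B, at 2.00 ± 0.25 (edgeR adjusted p = 0.00164; list median 0.39). CD86 (0.75 ± 0.19, edgeR adjusted p = 0.0462) was 1 of 3 in the antigen presentation list (median 0.08), and in the complement list 1 of 2 was lower, the integrin ITGAM at -1.78 ± 0.43 (edgeR adjusted p = 0.0376; list median -1.23). CD86 and ITGAM were also gate markers. None of 3 Fc receptor genes passed (median 0.00), and the median over all tested genes was -0.01. The scavenger receptor and growth factor lists had no gene with a symbol. The number of genes called moved from 253 to 139 without LH replicate 1, 77 without LH replicate 2, 279 without LL replicate 1 and 113 without LL replicate 2.

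Partners of CD14 in lipopolysaccharide sensing were also read in the gates. Against T cells, all 11 tested genes of the CD14 and Toll-like receptor list were higher in the myeloid gate (median 4.41 log2 units, 0.05 over all genes), TLR2 and TLR4 being gate markers. In the luminal gate 3 of 11 were higher (median -0.02), a share close to the 30.1% of all genes called higher there: TLR2 by 5.74 ± 0.93, TLR5 by 3.91 ± 1.28 and TLR3 by 2.55 ± 0.52 log2 units (edgeR adjusted p = 1.84e-05, 0.0129 and 0.000286). In the RELN gate 2 were higher, TLR2 (5.39 ± 1.06) and TLR4 (3.31 ± 0.71), and NFKBIA was lower (-0.69 ± 0.25; edgeR adjusted p = 0.000249, 0.000593 and 0.0304). Those counts are below the shares over all genes in that fit, 22.3% higher and 21.8% lower.

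LH and LL differed in none of the members by a passing margin. In the myeloid gate the change in LL against LH was -0.32 ± 0.36 log2 units for C1QA, 0.23 ± 0.36 for MRC1 and -0.06 ± 0.32 for CD14 (edgeR adjusted p = 0.937, 0.966 and 0.993), where 0.0121% of 8243 genes were called. C1QA was the only member whose myeloid level in both LH ewes exceeded both LL ewes, while the MRC1 and CD14 values of the stages overlapped. MRC1 changed sign without LH replicate 2 (-0.14) and CD14 without LL replicate 1 (0.11). With 2 ewes a stage the exact permutation test of a share cannot go below 0.333. The C1QA share differed by -1.44 percentage points (exact permutation p = 1.00), the MRC1 share by 3.99 and the CD14 share by -3.01 (both exact p = 1.00). With 1 library left out each changed sign, running from -5.90 to 3.01, from -9.59 to 17.6 and from -7.19 to 1.18 points.

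The summed level of fibroblast markers inside the myeloid gate was higher in both LL ewes than in both LH ewes. The 4 fibroblast markers summed to 5.74 and 0.743 CPM in the LH libraries, against 58.7 and 58.9 CPM in the LL libraries, and in the T cell gate to 11.4 and 3.70 against 89.3 and 49.0 CPM. Only 1 of these 4 markers was tested between stages in the myeloid gate, and it did not pass (4.03 log2 units). The fibroblast gate itself held 211 and 27 LH cells against 1913 and 1030 LL cells. The part of fibroblast markers in the stage comparison of the members was not tested. None of the genes in the related lists passed in the myeloid gate. The list medians were -0.12 for complement (2 tested), 0.02 for the CD14 and Toll-like receptor list (10), -0.13 for the interleukin-1 list (6), -0.21 for Fc receptors (3) and -0.07 for antigen presentation (4), against -0.01 over all genes.

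Over all kept cells, where fewer cells of a type and less RNA per cell cannot be told apart, C1QA stood at 241 and 198 CPM in the LH libraries, against 157 and 47.5 CPM in the LL libraries. The LL values were both below the LH values, but the change of -1.15 ± 0.58 log2 units did not pass (edgeR adjusted p = 0.967, 0% of 15333 genes called, 658 at an unadjusted p under 0.05; DESeq2 called 92). Leaving out LL replicate 1 gave -2.19, and leaving out LL replicate 2 gave -0.55. MRC1 was 21.4 and 7.96 against 14.7 and 5.76 CPM (-0.56 ± 0.68), and CD14 3.93 and 5.78 against 5.77 and 5.04 CPM (0.13 ± 0.36), with edgeR adjusted p = 0.975 and 0.996. Both sets of values overlapped between stages, and both changes turned sign without LH replicate 1. The myeloid gate held 2.61% and 2.46% of kept LH cells and 2.02% and 1.02% of kept LL cells.

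Outside the myeloid gate the stages were compared for C1QA in the T cell, luminal, contractile and RELN gates, for CD14 in the luminal gate and for MRC1 in the RELN gate, and none of these passed the edgeR test as reported. In luminal cells CD14 was higher in both LL ewes than in both LH ewes, by 0.75 ± 0.35 log2 units, and did not pass (edgeR adjusted p = 0.602, 0.00756% of 13219 genes called). The luminal share of CD14-positive cells was 2.40 percentage points higher in LL unthinned, and the thinned difference was -0.0236 points. In the RELN gate C1QA was lower in LL by 2.60 ± 0.52 log2 units (edgeR adjusted p = 0.342, 0% of 6924 genes called, 599 at an unadjusted p under 0.05; DESeq2 called 102). DESeq2 called C1QA there (-2.67, DESeq2 adjusted p = 0.0432), as did edgeR with no filter on low counts (-2.47, edgeR adjusted p = 0.00104). As given above, 17 of the LH UMIs there sat in 1 cell. MRC1 in the RELN gate changed by 0.40 ± 0.86 (edgeR adjusted p = 0.947) and reversed without LH replicate 2 (-0.37) or LL replicate 2 (-0.39). C1QA in luminal, contractile and T cell gates changed by -0.83 ± 0.77, -0.73 ± 0.57 and 0.15 ± 0.30 (edgeR adjusted p = 0.790, 0.796 and 0.985), where 0.0838% of genes were called in the contractile and 0.0126% in the T cell gate.

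Over 25 gate-by-library sums of at least 50 cells, the genes with a symbol whose log2 CPM ran most like C1QA were CD86 (Pearson r = 0.94), RETN (0.94), CXCL8 (0.94), IL1B (0.93) and TLR8 (0.92), out of 452 compared. MRC1 ran most like CXCL1 (0.90), IL1B (0.85), LYN (0.84), CAPN3 (0.84) and CXCL8 (0.81). CD14 ran most like ITGAV (0.86), RAB7A (0.84), TLR4 (0.83), PLAUR (0.82) and FCGRT (0.82). The sums share ewes, libraries and gate markers, of which CD86 and TLR4 are 2, so these values are a description.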

How the data were processed

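The count tables hold UMI counts per gene and barcode as deposited, made with Cell Ranger 7.2.0 per the file headers. The submitters' processing notes also name Cell Ranger 5.0.1, STAR and Seurat 3.2.0. The genome build is not given in the sources used here. Barcodes above 20% mitochondrial UMIs (13 genes) and simulated-doublet calls were removed, and gates were set from named markers without the 3 genes. Counts were summed per gate and library and tested with edgeR 4.0.16 (quasi-likelihood, TMM, Benjamini-Hochberg adjustment over all tested genes, filter minimum 10 counts), with the ewe as a block between gates and between IL1 classes. DESeq2 1.42.0 was the alternative, in R 4.3.3. Cells were thinned to 1000 UMIs, which left out 3263. Intervals are exact at 95% and cover counting error only, and a count of 0 allows up to 3 counts. With 2 ewes a stage there are 6 arrangements. Replicate numbers were not taken to pair ewes, since there are only 2 pairs and the labels tie none. The fits were tested on simulated data. The named genes were the members, IL1A, IL1B, gate markers, list genes past the test and the 5 genes most alike to each member. Members and lists were chosen with earlier results of these data known. Further analysis used Python 3.11.15, numpy 2.4.6, scipy 1.17.1 and pandas 2.3.3.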

Additional observations from a re-analysis of the deposited data

Results flagged for a closer look

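In 3 comparisons both LH ewes went one way and both LL ewes the other, and none of these differences between stages was tested. CD14 in myeloid cells with IL1A or IL1B minus those without was 26.4 and 47.6 CPM in the LH libraries and -0.867 and -41.7 CPM in the LL libraries. C1QA in the RELN gate minus the T cell gate was 42.8 and 12.5 CPM in the LH libraries and -11.8 and -20.3 CPM in the LL libraries, with 17 of the 24 RELN-gate UMIs of LH replicate 1 in 1 cell and 23 of the 27 T cell UMIs of LL replicate 2 in 1 cell. Without cells of 10 or more C1QA UMIs, the RELN gate of LL replicate 2 was at 4.68 CPM against 3.71 CPM in T cells, and the opposite directions of the stages no longer held. CD14 in luminal cells with LTF above SPP1 minus the other luminal cells was -2.42 and -1.20 CPM in the LH libraries and 2.62 and 1.88 CPM in the LL libraries, the first on 1 positive cell.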

How the results depend on the processing

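With 2 ewes a stage the stage values turn on single libraries, and CD14 and MRC1 counts are low outside the myeloid gate. The calls of all 3 members in the myeloid gate, of MRC1 in the RELN gate and of CD14 in the luminal and fibroblast gates against T cells held under every alternative run. With 1 library left out in turn, the log2 change of LL against LH ran from -2.19 to -0.55 for C1QA, -1.33 to 0.32 for MRC1 and -0.12 to 0.42 for CD14 over all cells, from -0.14 to 0.71 for MRC1 and -0.21 to 0.11 for CD14 in the myeloid gate, and for C1QA from -0.037 to 0.28 in the T cell, -1.54 to 0.95 in the luminal and -1.26 to 0.87 in the contractile gate. For MRC1 in the RELN gate it ran from -0.39 to 2.48. Against T cells the ranges were 1.11 to 3.23 for MRC1 and 2.89 to 5.13 for CD14 in the contractile gate, -0.34 to 0.063 for MRC1 in the fibroblast gate, -1.35 to 0.11 for MRC1 in the luminal gate, -1.19 to 0.058 for C1QA and 3.38 to 6.89 for CD14 in the RELN gate, and 3.46 to 6.60 for CD14 in the blood endothelium gate. With doublet calls kept, the stage change was 0.0024 for myeloid CD14 and -0.10 for T cell C1QA, and MRC1 against T cells was 0.26 in the fibroblast and 2.42 in the contractile gate. The contractile MRC1 difference was 2.32 with DESeq2 and 2.42 without the filter on low counts. C1QA of the RELN gate between stages was -2.67 with DESeq2 and -2.47 without the filter. Under the stricter gate, differences from T cells were -3.73 for MRC1 in the blood endothelium gate, -3.57 for MRC1 and -0.18 for CD14 in the contractile gate, -1.65 for C1QA in the luminal gate and 0.12 for C1QA in the RELN gate, and MRC1 in the RELN against the contractile gate was 9.90 (edgeR adjusted p = 0.120). In RELN-gate cells with both RELN and F8, C1QA against T cells was -1.50 and MRC1 against blood endothelium 4.70. The stage difference of the RELN-gate C1QA share was -1.16 points thinned and -4.53 points under the stricter gate, and that of the luminal CD14 share -0.0236 points thinned. Thinned, the mean shares were 21.5% for MRC1 among C1QA-positive, 77.8% for C1QA among CD14-positive and 0.579% for all 3 members among myeloid cells. The cause was not tested in any of these. Numbers of genes called between stages ran from 0 to 92 over all cells (0 as reported), 1 to 135 in the myeloid (1), 1 to 231 in the T cell (1), 0 to 231 in the luminal (1), 4 to 331 in the contractile (7) and 0 to 552 in the RELN gate (0). They ran from 77 to 688 between IL1 classes (253), 2239 to 6454 for contractile against T cells (6393), 2176 to 3416 for blood endothelium against T cells (3314), 874 to 3316 for RELN against contractile (3213) and 16 to 123 for RELN against blood endothelium (59). The replicate numbers gave a correlation of deviations of 0.281 over all cells and 0.0257 in the myeloid gate, and the replicate block called 8 genes in the myeloid, 64 in the T cell and 12 in the contractile gate and changed no call of a member. The IL1 comparison could not be run under the stricter gate, which left 1 library with enough cells.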
